A study of Mus musculus with 8 samples.

Results

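Tuft cells are rare chemosensory cells of the intestinal lining, and 9 genes of their identity and signalling (Dclk1, Trpm5, Pou2f3, Gfi1b, Avil, Alox5, Alox5ap, Rgs13 and Sh2d6) were followed in the distal colon of mice from 2 kinds of housing. The genes were chosen by name from what is known of tuft cells, with earlier results of these data known. Of the 9, 7 were measured and tested, among 16130 genes in the table and 14311 tested, and levels of Pou2f3 and Gfi1b were not analysed here. RNA came from animals labelled Tcf4Het/+ ApcMin/+, so both groups carried the ApcMin allele, a truncating allele of the tumour suppressor Apc, and 1 altered Tcf4 allele. Animals labelled EE (environmentally enriched, n = 4 libraries) had spent 4 months in enriched cages and those labelled NE (non-enriched, n = 4 libraries) 4 months in standard ones. Age, sex and strain are not given in the labels used here. Nor do they tie libraries to individual animals, and the p-values therefore measure only the spread between these libraries, which may be technical.

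A tuft cell senses lumenal compounds through taste-type receptors and G proteins. The signal passes through a phospholipase and an inositol trisphosphate receptor to the cation channel TRPM5, and the cell then releases interleukin 25, acetylcholine and eicosanoids. The transcription factor POU2F3 is needed for the lineage to form, and the kinase DCLK1 is the marker most used to find these cells in mouse gut and in intestinal tumours. Some of the genes are not exclusive to tuft cells: Alox5 and Alox5ap are used by neutrophils, macrophages and mast cells, Rgs13 by germinal centre B cells and mast cells, Dclk1 by neurons, and Avil by sensory neurons. In whole tissue, fewer tuft cells and less RNA per tuft cell cannot be told apart.

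The 7 genes did not move as 1 block. Avil stood higher in EE, Alox5, Trpm5, Dclk1 and Rgs13 stood lower, and Alox5ap and Sh2d6 lay near no difference. None of the 7 passed the test over all genes (edgeR's quasi-likelihood test, Benjamini-Hochberg adjusted p between 0.520 and 0.953), and 0% of the 14311 tested genes did. At an unadjusted p under 0.05 stood 1357 genes, 1 member in the higher direction (Avil), where 5.73% of all tested genes stood, and 1 in the lower direction (Alox5), where 3.75% stood. DESeq2 called 14 genes and limma-voom 0, with no member among them. In no member did the 4 EE values clear the 4 NE values, a separation seen in 4.89% of tested genes.

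The letters upstream of the genes with the widest differences are shown because Avil and the other pair differed in direction. Each window runs from 250 bases before to 50 bases after the gene start (RefSeq, GRCm38.p6). Capitals mark the letters ATGCAAA on either strand, the first 7 of the octamer ATGCAAAT that POU factors are known to bind.
Avil, chr10:127000459-127000758, plus strand: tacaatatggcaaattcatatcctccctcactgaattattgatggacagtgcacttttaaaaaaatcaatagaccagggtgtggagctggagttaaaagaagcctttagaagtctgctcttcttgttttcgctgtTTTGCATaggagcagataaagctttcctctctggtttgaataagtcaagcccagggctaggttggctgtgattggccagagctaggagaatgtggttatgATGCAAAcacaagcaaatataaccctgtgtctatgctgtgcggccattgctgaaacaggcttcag
Trpm5, chr7:143094593-143094892, minus strand: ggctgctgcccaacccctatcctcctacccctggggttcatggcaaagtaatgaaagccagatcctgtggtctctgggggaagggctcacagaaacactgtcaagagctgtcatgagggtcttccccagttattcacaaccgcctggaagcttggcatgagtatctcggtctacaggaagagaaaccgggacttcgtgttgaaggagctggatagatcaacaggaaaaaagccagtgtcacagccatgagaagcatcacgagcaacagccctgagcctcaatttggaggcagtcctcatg
Alox5, chr6:116461129-116461428, minus strand: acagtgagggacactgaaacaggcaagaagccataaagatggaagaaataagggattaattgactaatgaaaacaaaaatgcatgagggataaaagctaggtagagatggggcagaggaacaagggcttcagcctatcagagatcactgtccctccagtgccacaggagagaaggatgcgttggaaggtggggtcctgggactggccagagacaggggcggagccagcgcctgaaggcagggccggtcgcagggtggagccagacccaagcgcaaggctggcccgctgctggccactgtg
The full octamer ATGCAAAT, and the looser ATGCNAAT that contains it, were searched on both strands in 8 windows of 7 of the 9 genes (Dclk1 with 2, Trpm5, Gfi1b, Avil, Alox5, Rgs13 and Sh2d6), and neither was found. They occur in 1.74% and 3.15% of the 32851 windows of all genes. The 7-letter form, chosen after the letters were seen, lies in 1 of the 8 windows, that of Avil, once in each orientation, and in 4.63% of all windows. A first copy lies on the printed strand at bases 236 to 242 of the window and the other, reversed, at bases 136 to 142. These matches describe letters only.

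Avil encodes advillin, an actin-binding protein of the villin family that shapes the long apical tuft (chromosome 10, 127000709 to 127020994 on GRCm38, plus strand). It had 361, 221, 723 and 715 counts in EE 1 to EE 4, and 228, 321, 710 and 341 counts in NE 1 to NE 4. Scaled to library size (CPM, a gene's share of its library's counted reads), it was at 76.7, 42.3, 109.2 and 113.4 CPM in EE 1 to EE 4, against 36.0, 46.0, 66.6 and 56.5 CPM in NE 1 to NE 4. EE 1, EE 3 and EE 4 therefore lay above every NE library, and EE 2 lay within the NE range. Group means were 85.4 ± 33.1 CPM in EE and 51.3 ± 13.2 CPM in NE (SD, n = 4 each), a log2 fold change (EE minus NE) of 0.73 with a standard error of 0.29 and an unadjusted 95% interval of 0.08 to 1.39 (edgeR unadjusted p = 0.0309, adjusted p = 0.520). It ranked at the 97.9th percentile of all tested fold changes. The fold change was 0.58 without EE 4, the library lowest in smooth muscle and fibroblast markers, and 0.96 without EE 2.

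Avil is also the 1 member that passed in the authors' deposited table, with an FDR of 0.0213, where 2.39% of the 16130 genes had an FDR under 0.05. The authors' deposited table gives it a log2 fold change of −0.61. That table does not name its numerator, and for 97.8% of tested genes its sign was opposite to EE minus NE computed from the columns. A ratio of NE over EE would give such signs, and so would exchanged column names, so EE and NE here mean the libraries labelled so. In the authors' deposited table the FDR of the other 6 members was between 0.465 and 1.0.

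Tsfm, a mitochondrial translation factor gene, overlaps the end of Avil on the opposite strand, and whether counting used the strand is not given in the sources used here. Tsfm was at 22.9 ± 1.95 CPM in EE and 22.9 ± 2.82 CPM in NE, a log2 fold change of 0.00 (SE 0.14). Sensory neurons are another known site of Avil, and the neuron markers read here are those of enteric neurons. The 11 enteric neuron markers, all in the table, summed to 120.0, 109.7, 47.1 and 39.0 CPM in EE 1 to EE 4, against 72.8 to 133.2 CPM in NE. EE 3 and EE 4, highest for Avil, were lowest for these markers, whose part in the Avil level was not tested. The 2 most abundant of them were Vip, a neuropeptide gene, at 25.95 ± 17.5 CPM in EE and 34.9 ± 9.51 CPM in NE, and Ret, a growth factor receptor gene, at 15.3 ± 7.70 CPM in EE and 13.8 ± 4.36 CPM in NE.

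**Figure D1:**
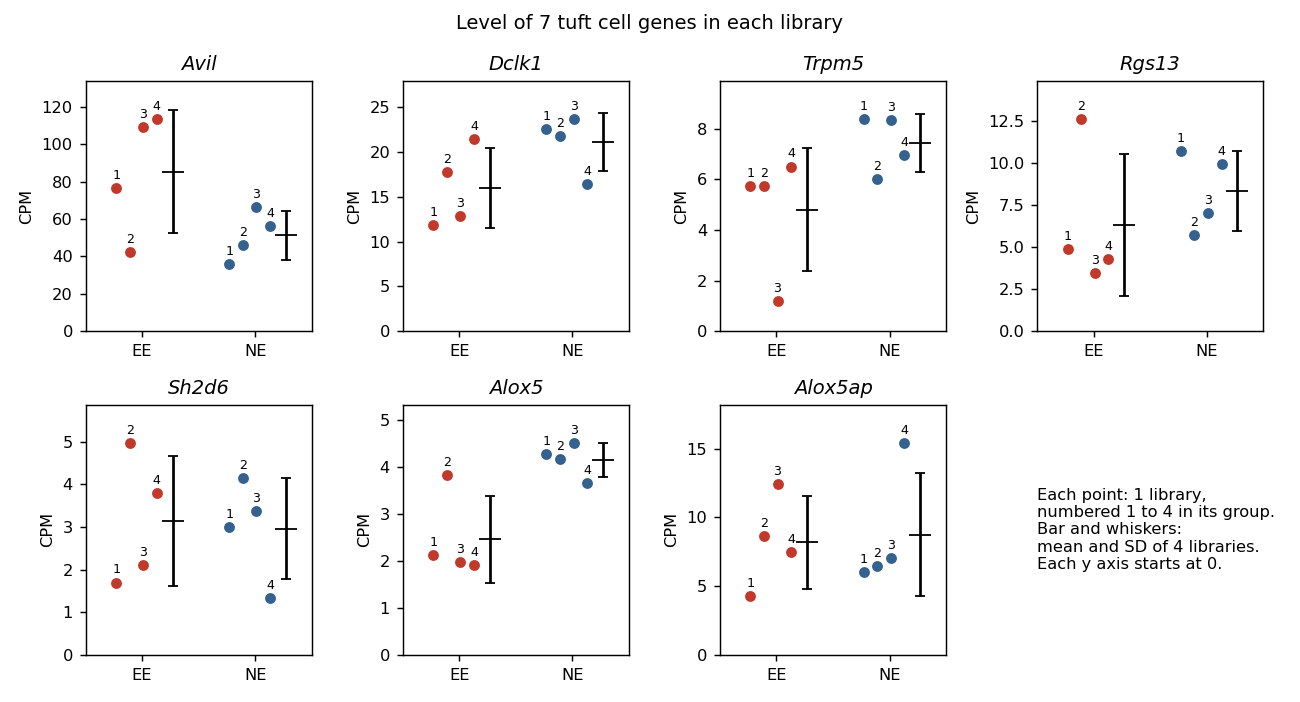
Level of each of the 7 measured tuft cell genes, in CPM on axes that start at 0, in the EE and NE libraries (points, numbered by library) with the mean and SD of 4 libraries. Avil lay above every NE library in 3 EE libraries, and Alox5 and Trpm5 lay below every NE library in 3 EE libraries each.

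Alox5 encodes arachidonate 5-lipoxygenase, the enzyme that starts leukotriene synthesis (chromosome 6, 116410077 to 116461178, minus strand). It had 10, 20, 13 and 12 counts in EE 1 to EE 4, and 27, 29, 48 and 22 counts in NE 1 to NE 4. Its levels were 2.12, 3.83, 1.96 and 1.90 CPM in EE 1 to EE 4, against 4.26, 4.16, 4.50 and 3.65 CPM in NE 1 to NE 4. The NE libraries lay close together and above EE 1, EE 3 and EE 4, while EE 2 lay between the lowest 2 NE values. The log2 fold change was −0.77 (SE 0.29, unadjusted 95% interval −1.42 to −0.12, edgeR unadjusted p = 0.0252, adjusted p = 0.520), the lowest of the 7 and at the 2.93rd percentile of all tested genes. Without EE 4 it was −0.66, and without EE 2 −1.05.

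The other cells known to use Alox5 were read from marker lists. The 6 general leukocyte markers summed to 125.1, 299.9, 281.3 and 105.6 CPM in EE 1 to EE 4, against 220.0 to 384.2 CPM in NE, led by Ptprc at 67.3 ± 36.9 CPM in EE and 91.9 ± 23.2 CPM in NE and by Cd53 at 34.9 ± 19.6 CPM in EE and 48.6 ± 19.8 CPM in NE. The 10 macrophage markers summed to 133.5 to 416.0 CPM in EE and 301.7 to 355.7 CPM in NE, with Csf1r at 44.95 ± 19.4 CPM in EE and 53.1 ± 7.07 CPM in NE and C1qa at 42.2 ± 24.9 CPM in EE and 48.0 ± 3.31 CPM in NE. EE 1 and EE 4 were low for these leukocytes and for Alox5, whereas EE 3 was low for Alox5 and had the highest macrophage sum of the 8 libraries. What these cells contribute to the Alox5 difference was not tested.

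Alox5ap encodes the membrane protein that presents arachidonic acid to 5-lipoxygenase (chromosome 5, 149264767 to 149288153, plus strand). Although its product works with that of Alox5, it did not follow it. Its levels were 4.25, 8.61, 12.4 and 7.45 CPM in EE 1 to EE 4, against 6.0, 6.45, 7.04 and 15.4 CPM in NE 1 to NE 4. The highest value was in NE 4 and the lowest in EE 1, and the groups overlapped throughout. The log2 fold change was −0.07 (SE 0.38, 95% interval −0.92 to 0.77, edgeR adjusted p = 0.947), and its sign turned with scaling to the epithelium (0.15), with limma-voom (0.00) and without EE 1 (0.13) or NE 4 (0.34).

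Neutrophil markers varied from library to library alongside Alox5ap. The 8 of 10 listed that were in the table summed to 134.2, 652.7, 515.5 and 365.9 CPM in EE 1 to EE 4, and to 192.2, 223.3, 342.1 and 917.1 CPM in NE 1 to NE 4. EE 1 was lowest and NE 4 highest in both measures. The calprotectin genes S100a9 and S100a8 led the list, at 195 ± 124 and 138 ± 82.1 CPM in EE and 203 ± 199 and 119 ± 107 CPM in NE. The 8 mast cell markers in the table, of 10 listed, summed to 55.2 to 81.9 CPM in EE and 43.4 to 86.4 CPM in NE, with Hdc at 25.3 ± 14.4 CPM in EE and 32.8 ± 5.90 CPM in NE and Mcpt1 at 23.1 ± 11.1 CPM in EE and 17.1 ± 8.47 CPM in NE. Their part in the Alox5ap level was not tested.

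**Figure D2:**
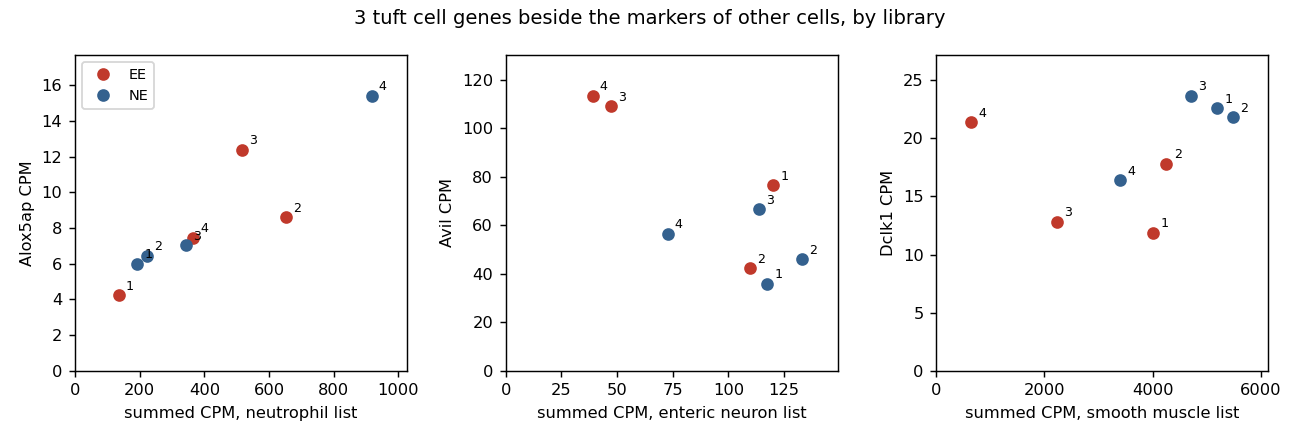
Alox5ap, Avil and Dclk1 levels in CPM (vertical axes, from 0) against the summed CPM of neutrophil, enteric neuron and smooth muscle markers (horizontal axes, from 0) in the 4 EE and 4 NE libraries, numbered by library. Alox5ap was lowest in EE 1 and highest in NE 4, as were the neutrophil markers, and Dclk1 in EE 4 stood at 21.4 CPM with the lowest smooth muscle sum.

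Trpm5 encodes the calcium-activated cation channel of taste and tuft cells (chromosome 7, 143069153 to 143094642, minus strand). It had 27, 30, 8 and 41 counts in EE 1 to EE 4, and 53, 42, 89 and 42 counts in NE 1 to NE 4. Levels were 5.73, 5.74, 1.21 and 6.50 CPM in EE 1 to EE 4, against 8.37, 6.02, 8.35 and 6.96 CPM in NE 1 to NE 4. EE 1, EE 2 and EE 3 lay below every NE library, the first 2 by little, and EE 4 lay between the lowest NE values. The log2 fold change was −0.64 (SE 0.41, 95% interval −1.54 to 0.25, edgeR adjusted p = 0.574), and EE 3 moved it most: without EE 3 it was −0.30, and without EE 4 −0.85. Tssc4, on the opposite strand within the Trpm5 locus, was at 28.6 ± 6.50 CPM in EE and 25.9 ± 2.55 CPM in NE, a log2 fold change of 0.15 (SE 0.18).

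Dclk1 encodes doublecortin-like kinase 1 (chromosome 3, 55242364 to 55539068, plus strand). RefSeq lists 2 starts for it, with windows that begin at 55242114 and 55461478, and the counts add transcripts from both. It had 56, 93, 85 and 135 counts in EE 1 to EE 4, and 143, 152, 252 and 99 counts in NE 1 to NE 4. Levels were 11.9, 17.8, 12.8 and 21.4 CPM in EE 1 to EE 4, against 22.6, 21.8, 23.6 and 16.4 CPM in NE 1 to NE 4. EE 1 and EE 3 lay below all NE libraries, and EE 2 and EE 4 lay within the NE range. The log2 fold change was −0.40 (SE 0.21, 95% interval −0.87 to 0.07, edgeR unadjusted p = 0.086, adjusted p = 0.537). Without EE 4 it was −0.57, at an unadjusted p of 0.0148 and an adjusted p of 0.722 (edgeR). That was the lowest value with 1 library left out. The fold change was −0.29 without EE 1, and −0.29 without EE 3.

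EE 4 had the lowest levels of muscle and connective tissue markers, and these lists stood lower in EE: all 8 smooth muscle and all 7 fibroblast markers had a negative log2 fold change, as had 6 of 6 leukocyte, 10 of 10 macrophage and 8 of 9 tested enteric neuron markers, with 0 passing the edgeR test. Of all tested genes, 49.7% were lower in EE. Without EE 4 the medians were −0.47 for smooth muscle, 0.07 for fibroblast, −0.20 for leukocyte, −0.04 for macrophage and −0.43 for enteric neuron markers. With scaling to the epithelium, 4 of 7 fibroblast and 4 of 10 macrophage markers had a positive log2 fold change. Of all 14311 tested genes, 10808 were positive with that scaling. All 8 smooth muscle, all 6 leukocyte and 8 of 9 enteric neuron markers were negative with that scaling. None of the markers in these lists was at 0 in any library. The 8 smooth muscle markers summed to 4009, 4255, 2234 and 645.1 CPM in EE 1 to EE 4, against 3394 to 5482 CPM in NE, with Myh11 at 613 ± 404 CPM in EE and 1120 ± 203 CPM in NE and Tagln at 522 ± 320 CPM in EE and 813 ± 152 CPM in NE. The 7 fibroblast markers summed to 447.9 to 1975 CPM in EE and 1458 to 1693 CPM in NE, with Col3a1 at 628 ± 371 CPM in EE and 693 ± 60.2 CPM in NE and Dcn at 230 ± 117 CPM in EE and 310 ± 22.5 CPM in NE. Dclk1 was highest among the EE libraries in EE 4, where smooth muscle, fibroblast and enteric neuron sums were lowest.

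Rgs13 encodes a small regulator that shortens G protein signals (chromosome 1, 144138654 to 144177372, minus strand). Its levels were 4.88, 12.6, 3.48 and 4.28 CPM in EE 1 to EE 4, against 10.7, 5.73, 7.04 and 9.94 CPM in NE 1 to NE 4. EE 2 held the highest value of all 8 libraries, while the other EE libraries lay below every NE library. The log2 fold change was −0.41 (SE 0.40, 95% interval −1.31 to 0.49, edgeR adjusted p = 0.696), −0.26 without EE 4, −0.20 without EE 3 and −0.27 without NE 1. Without EE 2 it was −0.99, with an adjusted p of 0.156. The 8 B cell markers in the table, of 10 listed, summed to 36.7, 69.7, 62.7 and 48.2 CPM in EE 1 to EE 4 and to 58.2 to 85.4 CPM in NE. The 2 most abundant were Bcl6 at 22.7 ± 6.71 CPM in EE and 22.0 ± 4.09 CPM in NE and S1pr2 at 11.4 ± 3.64 CPM in EE and 9.75 ± 2.20 CPM in NE.

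Sh2d6 encodes an SH2 domain adaptor (chromosome 6, 72513641 to 72521707, minus strand). It was the thinnest member, with 164 counts over the 8 libraries. Levels were 1.70, 4.98, 2.12 and 3.80 CPM in EE 1 to EE 4, against 3.0, 4.16, 3.38 and 1.33 CPM in NE 1 to NE 4. Its highest value was in EE 2 and its lowest in NE 4, and the groups overlapped. The log2 fold change was 0.07 (SE 0.42, 95% interval −0.86 to 1.01, edgeR adjusted p = 0.953), and −0.03 without EE 4. Differences of the size seen for Avil or Alox5 lie inside that interval.

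**Figure D3:**
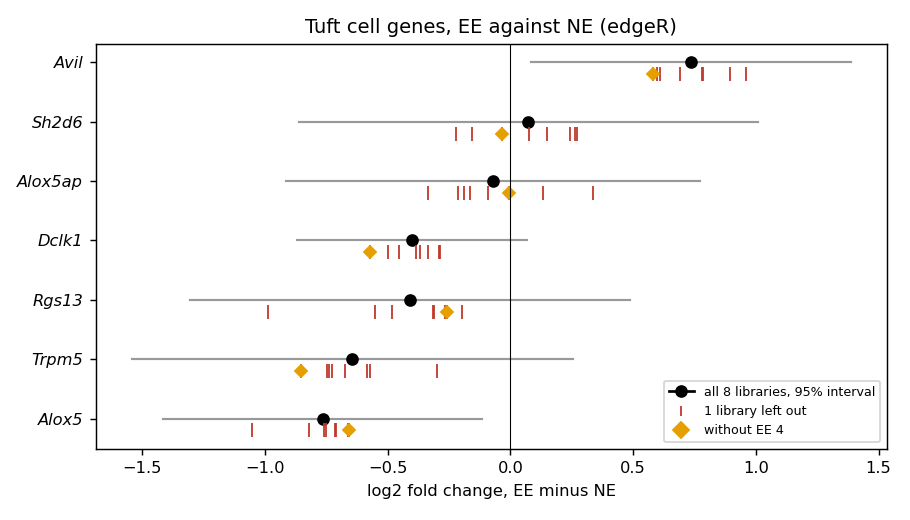
Log2 fold change (EE minus NE) of the 7 genes from all 8 libraries (black points) with unadjusted 95% intervals (grey lines), and beneath each the values with 1 library left out (red ticks) and without EE 4 (orange diamonds). Avil ranged from 0.58 to 0.96 and Alox5 from −1.05 to −0.66 with 1 library left out, while the values of Alox5ap and Sh2d6 fell on both sides of 0.

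Levels of different genes were compared as CPM per kilobase of annotated exon, a scale that takes all exons of a gene as transcribed. Avil was highest in each of the 8 libraries, at a mean of 25.1 CPM per kilobase in EE and 15.1 CPM per kilobase in NE. Alox5ap followed at 5.76 CPM per kilobase in EE and 6.14 in NE, and then Rgs13 at 3.82 in EE and 5.05 in NE. Sh2d6 was at 1.86 CPM per kilobase in EE and 1.75 in NE, and Dclk1 at 1.04 in EE and 1.38 in NE. Trpm5 was at 0.750 CPM per kilobase in EE and 1.16 in NE, and Alox5 at 0.598 in EE and 1.01 in NE. The order was the same in both groups. Ranges over the 8 libraries overlapped for each pair of neighbours in it, narrowly for Avil (10.6 to 33.4 CPM per kilobase) and Alox5ap (2.99 to 10.9) and widely for Dclk1 (0.777 to 1.55), Trpm5 (0.189 to 1.31) and Alox5 (0.463 to 1.10). The exons of Dclk1 add up to 15296 bases over its isoforms, against 1420 for Alox5ap, which lowers Dclk1 on this scale if short isoforms are in use.

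The libraries differed in which member was high. EE 2 held the highest Rgs13 and Sh2d6 of the 8, NE 3 the highest Dclk1 and Alox5, and NE 4 the highest Alox5ap and the lowest Sh2d6. The CPM of Avil divided by that of Dclk1, a ratio that library scaling leaves unchanged, was 6.45, 2.38, 8.51 and 5.30 in EE 1 to EE 4, against 1.59, 2.11, 2.82 and 3.44 in NE 1 to NE 4. EE 1, EE 3 and EE 4 lay above all NE libraries in this ratio, which was chosen after the values were seen, and EE 2 lay within the NE range.

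The profile of each gene over the 8 libraries (log2 CPM minus its mean) was set beside those of 12100 other genes with at least 5 CPM on average, by the root mean square difference. The 5 nearest to Dclk1 were Ddc, Trp53i11, St6galnac4, Creb3l4 and Clca3b, at 0.128 to 0.147 log2 units. Ddc encodes the decarboxylase that makes serotonin and dopamine, and was at 33.8, 52.4, 35.2 and 50.9 CPM in EE 1 to EE 4, against 65.2, 55.0, 54.9 and 48.4 CPM in NE 1 to NE 4. The 5 nearest to Trpm5 were Gm8979, Ccdc116, Chga, Muc3 and Ppargc1b, at 0.334 to 0.367, a looser likeness. Chga, which encodes the hormone granule protein chromogranin A, was at 41.6, 37.9, 14.1 and 26.9 CPM in EE 1 to EE 4 and at 60.9, 47.0, 53.7 and 38.0 CPM in NE 1 to NE 4, lowest in EE 3 like Trpm5.

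The 5 genes nearest to Alox5ap were Csf2rb2, Hspe1, Csf2rb, Scarna13 and Med21, at 0.105 to 0.164. Csf2rb and Csf2rb2 encode the mouse beta subunits of receptors for myeloid growth factors and have near-identical sequence, so reads may be split between them. Csf2rb was at 11.2, 20.3, 27.4 and 14.9 CPM in EE 1 to EE 4, against 14.2, 15.6, 19.5 and 29.7 CPM in NE 1 to NE 4. The 5 nearest to Avil, a gene added to this comparison after its values were seen, were Cdh13, Atp10a, Robo1, Sox21 and Patz1, at 0.111 to 0.145. Cdh13, an atypical cadherin gene, was at 80.0, 36.2, 111.1 and 118.3 CPM in EE 1 to EE 4, against 36.2, 47.7, 57.7 and 53.7 CPM in NE 1 to NE 4. No member was among the 5 genes nearest to any of these 4, where Alox5 and Sh2d6 lay under the 5 CPM limit. These are likenesses over 8 libraries that differed in markers of other cells and in depth, and the part of such differences was not tested.

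A further 94 genes in 5 lists covered the rest of tuft cell biology, and 66 of them were tested. None passed the test over all genes (edgeR adjusted p, 0% of all tested genes). Of the 66, 27 were higher and 39 lower in EE with a median log2 fold change of −0.14, against a median of 0.00 over all tested genes. Without EE 4 the median of the 66 was −0.04. With scaling to the epithelium, which moves the median of all genes by 0.21, the split was 39 higher and 27 lower. Of all 14311 tested genes, 10808 were higher and 3503 lower with that scaling. Without EE 4 the split of the 66 was 30 and 36. At an unadjusted p under 0.05, 4 were higher and 7 lower, and in 2 of the 66 the groups did not overlap. Over all tested genes the shares were 5.73% higher, 3.75% lower and 4.89% without overlap.

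Genes of the chemosensory cascade, with the related channel gene Trpm4, stood lower in 5 of 6 tested members of 13 listed. With scaling to the epithelium 3 of 6 stood lower, against 3503 of all 14311 tested genes. The median log2 fold change of the 6 was −0.22, and −0.36 without EE 4. Gnat3, which encodes the taste G protein gustducin, was at 1.27, 1.91, 0.907 and 0.951 CPM in EE 1 to EE 4, against 4.89, 1.86, 2.72 and 1.16 CPM in NE 1 to NE 4. Its log2 fold change was −1.09 (SE 0.47, adjusted p = 0.520 by edgeR), in a gene with 108 counts over the 8 libraries, and it was −0.65 without NE 1. Plcb2, the phospholipase of the cascade, was at 3.15 ± 1.32 CPM in EE and 4.35 ± 0.403 CPM in NE. Trpm4 was at 129 ± 36.3 CPM in EE and 164 ± 41.8 CPM in NE, and the inositol trisphosphate receptor gene Itpr3 at 248 ± 78.6 CPM in EE and 210 ± 14.9 CPM in NE. Itpr3 was at 364.3 CPM in EE 4, and its log2 fold change was 0.24, and 0.001 without EE 4.

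Genes that make or sense lipid mediators stood higher in 6 and lower in 4 of 10 tested, of 15 listed, with a median log2 fold change of 0.18. With scaling to the epithelium 8 were higher and 2 lower, against 10808 higher and 3503 lower of all 14311 tested genes. Lta4h, Alox12, Alox15 and Hpgds stood higher in EE, where Alox5 stood lower, and none of them passed the test over all genes. Lta4h, the hydrolase that makes leukotriene B4, was at 177.7, 171.5, 190.7 and 226.2 CPM in EE 1 to EE 4, against 166.6, 147.2, 156.2 and 150.7 CPM in NE 1 to NE 4, so that the groups did not overlap (log2 fold change 0.30, SE 0.12, edgeR adjusted p = 0.520). The lipoxygenase genes Alox12 and Alox15 were at 58.2 ± 24.4 and 9.14 ± 2.42 CPM in EE, and at 34.7 ± 6.60 and 5.60 ± 2.48 CPM in NE. Hpgds, the prostaglandin D synthase of tuft and mast cells, was at 22.2 ± 2.03 CPM in EE and 19.8 ± 2.22 CPM in NE. Ltc4s, which makes the cysteinyl leukotriene C4 from the product of Alox5, was below the filter for testing at 0.613 ± 0.295 CPM in EE and 0.928 ± 0.657 CPM in NE.

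The circuit through which tuft cells and type 2 immune cells signal had 7 of 14 listed genes tested, 4 higher and 3 lower in EE (median log2 fold change 0.08, and 0.01 without EE 4). Siglecf, an eosinophil receptor that tuft cells also carry, was at 2.12, 2.68, 1.51 and 1.27 CPM in EE 1 to EE 4, against 3.32, 3.30, 2.72 and 3.48 CPM in NE 1 to NE 4, with no overlap (log2 fold change −0.76, SE 0.30, edgeR adjusted p = 0.520). The alarmin gene Il33 was at 44.5 ± 6.14 CPM in EE and 34.3 ± 7.30 CPM in NE, and that of its receptor, Il1rl1, at 101 ± 35.5 CPM in EE and 74.9 ± 20.9 CPM in NE. Il13ra1, a receptor chain for interleukin 13, was at 336 ± 58.2 CPM in EE and 403 ± 29.0 CPM in NE.

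Transcription factors of the tuft and neighbouring lineages were split, 4 higher and 3 lower of 7 tested from 12 listed (median log2 fold change 0.26, and 0.04 without EE 4). Spib, an ETS factor enriched in tuft cells and used by B cells and M cells, was at 4.67, 6.51, 1.51 and 2.06 CPM in EE 1 to EE 4, against 8.68, 6.74, 5.26 and 6.13 CPM in NE 1 to NE 4 (log2 fold change −0.88, SE 0.42, edgeR adjusted p = 0.520). EE 1, EE 3 and EE 4 lay below all NE libraries. Atoh1, the secretory fate factor, was at 47.8 ± 13.6 CPM in EE and 67.3 ± 12.4 CPM in NE. Runx1 and Sox9, a crypt base factor that tuft cells keep, were at 61.1 ± 20.8 and 101 ± 31.7 CPM in EE, and at 39.7 ± 5.59 and 78.7 ± 5.90 CPM in NE.

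Other markers from single-cell descriptions of tuft cells stood lower in 24 and higher in 12 of 36 tested, of 40 listed, with a median log2 fold change of −0.18. With scaling to the epithelium 16 were lower and 20 higher, against 3503 lower and 10808 higher of all 14311 tested genes. Sh2d7, an adaptor gene of the same kind as Sh2d6, was at 1.70, 4.59, 1.06 and 2.22 CPM in EE 1 to EE 4, against 5.53, 4.44, 5.16 and 3.31 CPM in NE 1 to NE 4 (log2 fold change −0.96, SE 0.41, edgeR adjusted p = 0.520). The value was −1.48 without EE 2. As with Alox5, EE 2 lay within the NE range and the other EE libraries below it. Strip2 was at 5.81 ± 2.98 CPM in EE and 10.5 ± 1.35 CPM in NE, and the alcohol dehydrogenase gene Adh1, which many gut cells express, at 335 ± 92.2 CPM in EE and 542 ± 96.8 CPM in NE. The keratin gene Krt23 stood higher, at 129 ± 38.3 CPM in EE and 78.0 ± 11.2 CPM in NE (log2 fold change 0.72, SE 0.22).

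**Figure D4:**
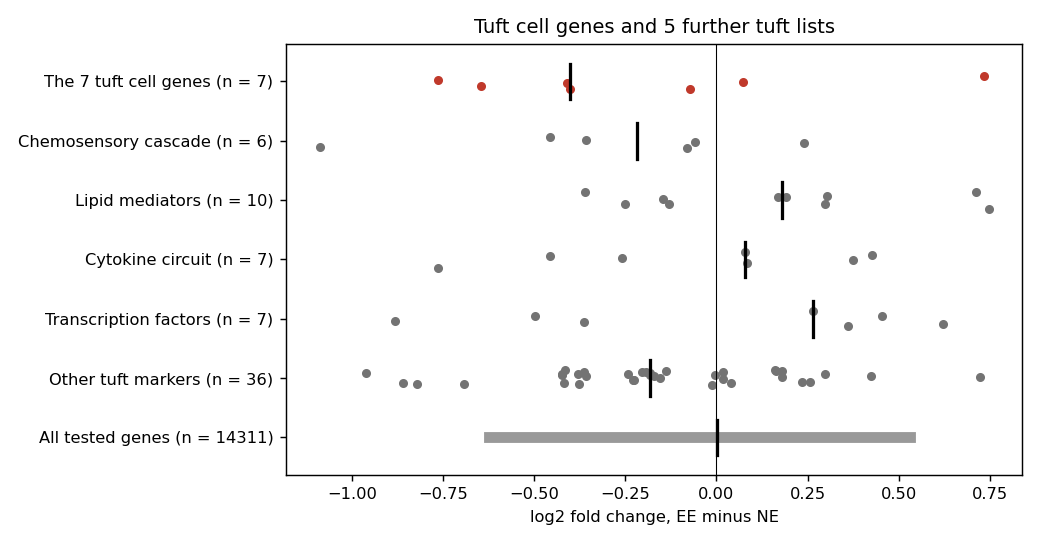
Log2 fold change (EE minus NE) of each tested gene (points, spread vertically for sight only) among the 7 tuft cell genes and the 5 further tuft lists, with medians as black bars; the grey bar spans the 5th to the 95th percentile of all 14311 tested genes, −0.62 to 0.53. The 7 genes had a median of −0.40 (−0.26 without EE 4, and −0.17 with scaling to the epithelium), and Avil lay above and Alox5 and Trpm5 below that span.

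Epithelial markers differed between libraries, not all in the same direction. The 10 general epithelial markers summed to 16260, 15680, 10360 and 11300 CPM in EE 1 to EE 4, against 13920 to 17630 CPM in NE, led by Lgals4 at 3479 ± 1216 CPM in EE and 4524 ± 454 CPM in NE and by Krt19 at 2110 ± 449 CPM in EE and 2286 ± 308 CPM in NE. Of the 10, 9 had a negative log2 fold change and Cdh1, the E-cadherin gene, a positive one of 0.09. Scaled so that these markers were level, the log2 fold changes were 0.998 for Avil, −0.59 for Alox5, −0.49 for Trpm5, −0.27 for Rgs13, −0.17 for Dclk1, 0.15 for Alox5ap and 0.29 for Sh2d6, where the median of all tested genes was 0.21.

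Markers of other lineages were also read. Enteroendocrine markers, 9 of 10 in the table, summed to 265.0, 301.1, 209.0 and 272.4 CPM in EE 1 to EE 4, against 283.8 to 441.6 CPM in NE, with Pyy at 118 ± 41.1 CPM in EE and 136 ± 53.9 CPM in NE and Chgb at 59.2 ± 24.9 CPM in EE and 102 ± 23.7 CPM in NE. All 7 tested enteroendocrine markers had a negative log2 fold change, with 0 passing the edgeR test. Their median was −0.56, and −0.46 without EE 4. EE 3 was lowest for these markers and for Trpm5, which some hormone-secreting cells also use. The part of these cells in the Trpm5 level was not tested. The megakaryocyte and erythroid markers, 11 of 14 in the table, summed to 91.0 to 172.2 CPM in EE and 198.9 to 273.6 CPM in NE. The 2 most abundant were globin genes, Hbb-bt at 68.5 ± 19.0 CPM in EE and 133 ± 25.7 CPM in NE and Hba-a2 at 20.8 ± 7.62 CPM in EE and 42.5 ± 9.34 CPM in NE. These were the only 2 of the 7 tested markers of this list without overlap between the groups, a separation seen in 4.89% of all tested genes. Of the 7, 6 had a negative log2 fold change and 1 a positive one.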

How the data were processed

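Total RNA of the distal colon was read on an Illumina HiSeq after ribosomal RNA depletion with a strand-preserving kit, per the labels' protocols. Novoalign 2.08.01, DESeq 1.14.0 and build mm10 are named in the submitters' processing notes, and the sources used here do not give the annotation, the counting program or its strand setting. The authors deposited raw read counts per gene for the 8 libraries (4735764 to 10586851 in total), used here as whole-number counts, together with log2 ratios and FDR values (adjusted p-values), as the file headers name them.

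Counts were tested across all genes in R 4.3.3 with edgeR 4.0.16 (filterByExpr, TMM scaling, robust quasi-likelihood test, Benjamini-Hochberg adjustment, threshold 0.05, 4 EE against 4 NE libraries, no covariate); the biological coefficient of variation was 0.219. CPM are scaled by TMM, with a prior count of 2 on the log2 scale. An interval is the fold change plus or minus its standard error times the 95% t quantile, unadjusted. Exon lengths and gene positions are from GENCODE M21 (GRCm38, the build also called mm10), where 15948 of 16130 identifiers were found. Intervals on counts cover counting error only.

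The members and the 16 gene lists were chosen with earlier results of these data known. The named genes are the 9 members, in each tuft list the 4 with the smallest unadjusted p (none passed the adjusted one), in the 11 other lists the 2 of highest mean CPM, and the 5 genes nearest in profile to Dclk1, Trpm5 and Alox5ap. Outside this rule, Tsfm and Tssc4 are named because they overlap members, and Ltc4s, Cdh1 and the 5 genes nearest to Avil were chosen after values were seen. Alternatives were DESeq2 1.42.0, limma-voom (limma 3.58.1), RLE, upper-quartile and epithelium scaling, no filter or 1 CPM in 4 libraries, a block for replicate number, leaving out each library, and thresholds of 0.1 and 0.01. In simulated EE and NE counts of 14311 genes, edgeR found 55 of 100 genes given a 2-fold difference and 89 of 100 given a 4-fold one, with 6 false calls.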

Additional observations from a re-analysis of the deposited data

Results flagged for a closer look

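In 4 of the 14 sets of 4 libraries (7 genes in EE and NE), 1 library stood apart from the other 3 by more than Dixon's 95% critical share of the whole range, which chance passes in about 1 of 20 sets. Trpm5 was at 1.21 CPM in EE 3 (8 counts, exact Poisson 95% interval 0.522 to 2.38 CPM), below 5.73 to 6.50 CPM in the other EE libraries. Alox5 was at 3.83 CPM in EE 2 (20 counts, 2.34 to 5.91 CPM), against 1.90 to 2.12 CPM in the other EE libraries. Rgs13 was at 12.6 CPM in EE 2 (66 counts, 9.77 to 16.1 CPM), against 3.48 to 4.88 CPM in the other EE libraries. Alox5ap was at 15.4 CPM in NE 4 (93 counts, 12.4 to 18.9 CPM), against 6.0 to 7.04 CPM in the other NE libraries. All 4 intervals lay outside the values of the other libraries of the group and cover counting error only.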

How the results depend on the processing

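Under all 16 alternatives, Avil stayed higher (log2 fold change 0.58 to 0.998) and Alox5 (−1.05 to −0.59), Trpm5 (−0.92 to −0.30), Dclk1 (−0.57 to −0.17) and Rgs13 (−0.99 to −0.20) stayed lower in EE, and none of the 7 members had an adjusted p under 0.05 (lowest 0.103, for Avil without EE 2). Alox5ap turned positive with limma-voom (0.003), with scaling to the epithelium (0.155) and when a library was left out (−0.34 to 0.34), and Sh2d6 ranged from −0.22 to 0.27 when a library was left out; the cause was not tested. Over all genes 0 passed, 14 with DESeq2, and 0 to 1 with a library left out, the 1 without EE 2. With the replicate number as a block, 0 genes passed, Avil was at 0.68 and Alox5 at −0.80. Same-numbered libraries deviated together with r of 0.25, 0.01, −0.18 and −0.04. Such values from 4 libraries per group cannot decide whether the numbers pair libraries, and the labels do not say. Standard errors were 0.29 and 0.42 for the 2 members with the fewest counts (Alox5 with 181, Sh2d6 with 164) and 0.29 for Avil with 3620, so they did not follow depth alone.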
